A study of Danio rerio with 4 samples.

Results

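The endoplasmic reticulum (ER) stress and unfolded protein response genes were followed in sorted β-cells as a set of 49 gene symbols, which occupied 50 of the 22044 rows of the deposited table. The symbols were picked by name for their known roles, with earlier results of these data known. A row was a member where its symbol was in the list. Shares of members set beside shares of all genes are therefore descriptive. The symbol dnajb9b stood on a second row, an antisense gene that overlaps it, and this row was kept apart from the 49 genes. The β-cells came from the dissected primary islets of zebrafish 3 months old and were sorted by FACS after dissociation with TrypLE, a warm and shaken enzyme digestion. WT fish carried Tg(ins:mKO), a fluorescent label of β-cells that the methods name Tg(ins:nlsRenilla-mKO2), and fish called here Tg(ins:il1b) carried Tg(ins:IL1B) together with the same label. In the transgene the insulin promoter drives mature il1b, the zebrafish interleukin-1β gene, so the β-cells themselves make the cytokine, and the construct is marked by mCherry in the lens. The study used the AB, WIK and TL strains, and 2 libraries were sequenced per genotype.

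Proteins that enter the secretory pathway fold in the ER, and β-cells carry an unusually heavy folding load because they make insulin in bulk. When unfolded proteins build up there, the sensors Ire1 (ern1), Perk (eif2ak3) and Atf6 start the unfolded protein response. Ire1 splices the mRNA of xbp1, Perk phosphorylates the initiation factor eIF2α and so favours translation of Atf4, and Atf6 is cleaved into a transcription factor. Together these arms raise chaperones, oxidases and degradation factors, and under lasting stress the Perk arm raises ddit3, which encodes the pro-apoptotic factor Chop. Splicing, phosphorylation and cleavage are not read by counts per gene.

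The comparison addressed what inflammation does to the transcriptome of β-cells. Values are the authors' normalised counts, in which the reads of each gene were divided by a factor of the library. The libraries held 28524617 to 35637508 reads in genes, and il1b itself had 11 and 1.9 normalised counts in WT, against 587911 and 423851 in Tg(ins:il1b). Log2 values correlated at 0.944 within WT, at 0.923 within Tg(ins:il1b) and at no more than 0.900 across genotypes. The summed β-cell markers were 6370531 and 8884075 in WT, against 3710559 and 3275281 in Tg(ins:il1b), and most of this sum is the insulin gene ins. The β-cell markers did not all fall, since 7 of the 22 tested had a log2 fold change above 0. DESeq2 called 2 of them higher (9.09%, against 4.24% of all genes) and 5 lower (22.7%, against 2.45%), with ins among the lower. Limma called 0 higher (1.1% of all genes) and 3 lower (13.6%, against 0.53%), which were g6pcb, kcnj11 and pcsk2 and not ins. Summed α-cell markers were 24940 and 33402 against 204847 and 449777. Summed δ-cell markers were 97183 and 3716 against 48252 and 1142781, lowest in WT replicate 2 and far higher in Tg(ins:il1b) replicate 2 than in the other libraries, and their part in the members' values was not tested. Macrophage and leukocyte markers summed to 6705 and 19784 against 22112 and 59790, with mpeg1.1 at 0, 1, 0 and 20.3 in the 4 libraries. In mRNA of a sorted fraction, fewer cells of a type and less RNA per cell cannot be told apart. The sources are silent on whether replicate libraries were made from different animals, so every p-value here reflects the spread between these 4 samples alone, which may be technical.

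Of the 49 genes, 47 were tested, those that reached 10 normalised counts in 2 or more libraries. The others were pdia2, a pancreas-enriched disulfide isomerase, with 0 and 24.1 normalised counts in WT, against 1 and 8.5 in Tg(ins:il1b), and wfs1a, a copy of the Wolfram syndrome gene, with 1 to 5.3. The levels of pdia2 followed the order of the summed acinar cell markers, which were 1322 and 7204 in WT, against 2234 and 4150 in Tg(ins:il1b), and their part in it was not tested. Per kb of gene length, the most abundant member in WT was pdia3, a disulfide isomerase that works on glycoproteins, at a mean of 9148 normalised counts per kb. Next came pdia6 at 4667, hspa5 at 4541 and hsp90b1 at 4125 normalised counts per kb. The lowest tested member was wfs1b at 15.7 normalised counts per kb. In Tg(ins:il1b), hspa5 stood at 6959 and xbp1 at 6360 normalised counts per kb, behind pdia3 at 11280.

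**Figure D1:**
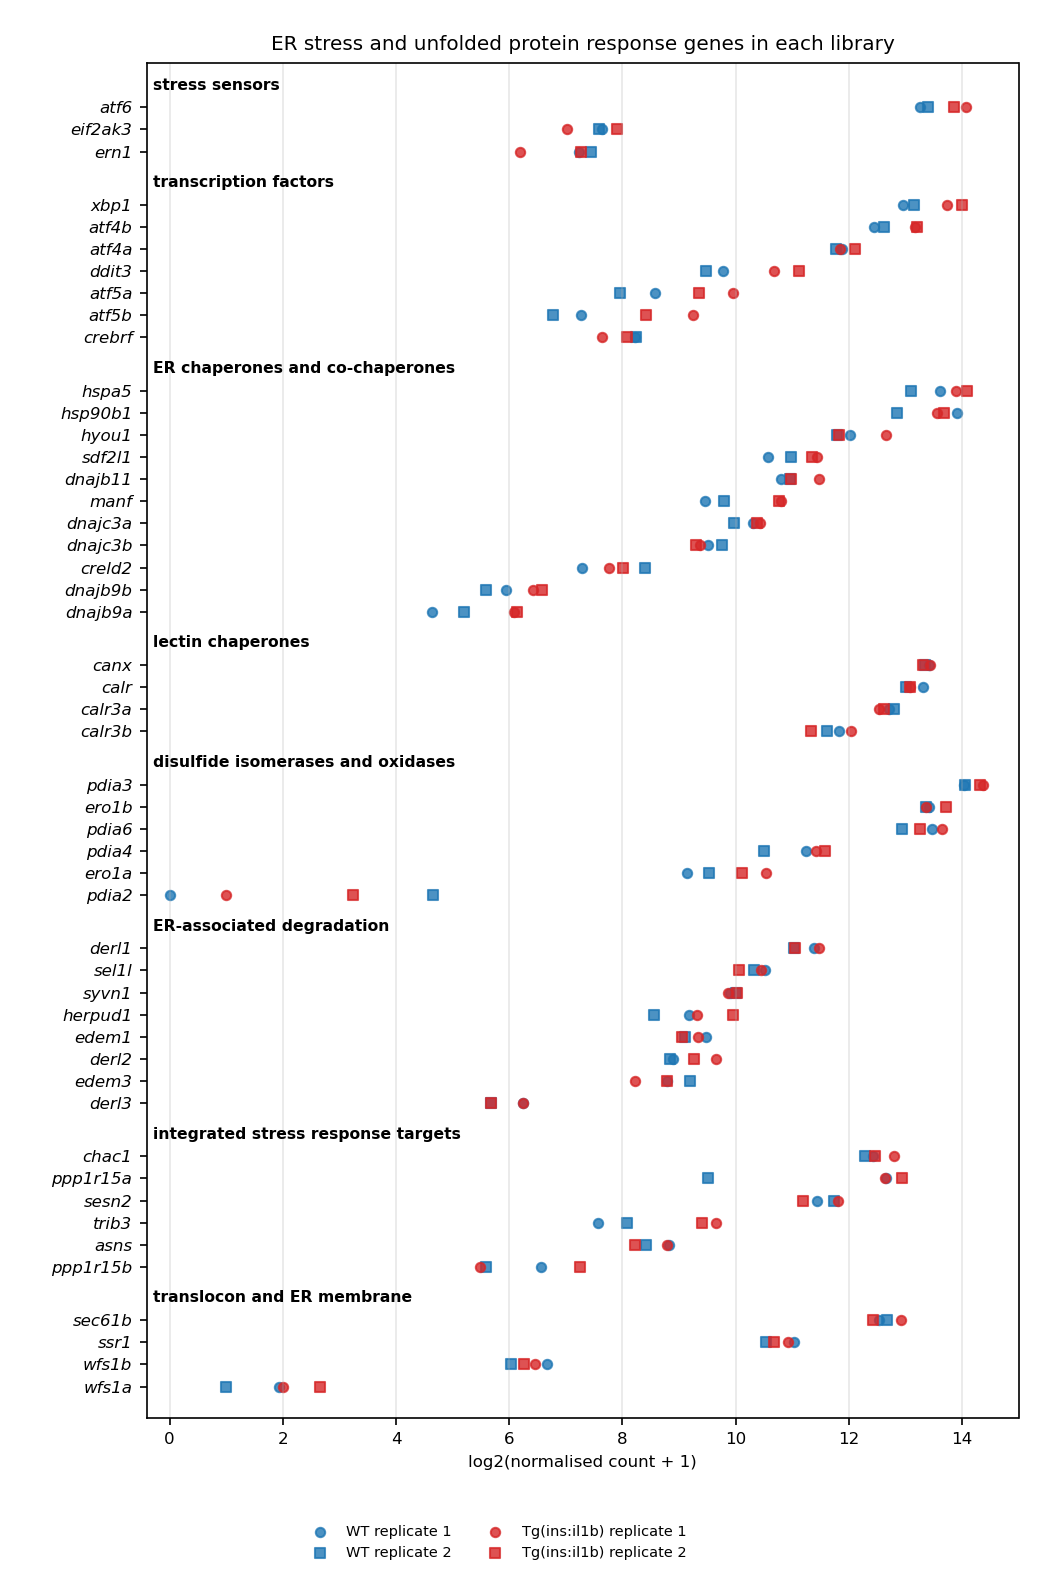
Level of each of the 49 genes in each library, as log2(normalised count + 1) on the horizontal axis, grouped by role; blue is WT, red is Tg(ins:il1b), circles are replicate 1 and squares replicate 2. The red points lie to the right of the blue for most transcription factors. For the lectin chaperones the groups overlap, except for calr3a, which is lower in both Tg(ins:il1b) libraries. The WT replicate 2 point of ppp1r15a stands far to the left of the other libraries.

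Many of the members were somewhat higher in Tg(ins:il1b), and none passed the main test. Limma on log2(normalised count + 1), adjusted by Benjamini-Hochberg over 18504 genes, called 0 of the 47 higher (1.1% of all tested genes were called higher) and 0 lower (0.53% of all). The quasi-likelihood test of edgeR on the whole reads also called 0 higher (0.903% of all genes) and 0 lower (0.373%). DESeq2 on the same reads called 7 members higher, 14.9% of them against 4.24% of all genes, and 0 lower against 2.45%. These were xbp1, ddit3, atf5a, atf5b, manf, ero1a and trib3. At an unadjusted p under 0.05 in limma, 11 members were higher (23.4%, against 7.95% of all genes) and 0 lower (6.45% of all genes). They were the 7 called by DESeq2 with atf6, atf4b, sdf2l1 and hspa5. With each library scaled to its total, which moved the median log2 fold change of all genes from -0.01 to 0.15, limma called trib3 (1.87, adjusted p = 0.0383) and manf (1.32, adjusted p = 0.046), 4.26% of the members against 1.52% of all genes called higher, and 0 members lower against 0.432%.

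Both Tg(ins:il1b) libraries lay above both WT libraries for 20 of the 47 members, 42.6% against 22.3% of all tested genes, and below both for 3, 6.38% against 22.1%. The log2 fold change of Tg(ins:il1b) over WT was above 0 for 33 members, against 49.3% of all genes, and its median was 0.25 over the members and -0.01 over all genes. The differences were mostly modest. The log2 fold change exceeded 0.5 for 17 members (36.2%, against 21.5% of all genes) and 1 for 7 members (14.9%, against 11.7%), and it was under -1 for 0 members (9.53% of all genes). The median absolute difference between the 2 libraries of a genotype was 0.32 in WT and 0.31 in Tg(ins:il1b) on the log2 scale. Between the genotype means it was 0.29, and a mean of 2 libraries varies less than a single library, so the measures are unlike. Over all tested genes the 3 values were 0.39, 0.45 and 0.39.

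**Figure D2:**
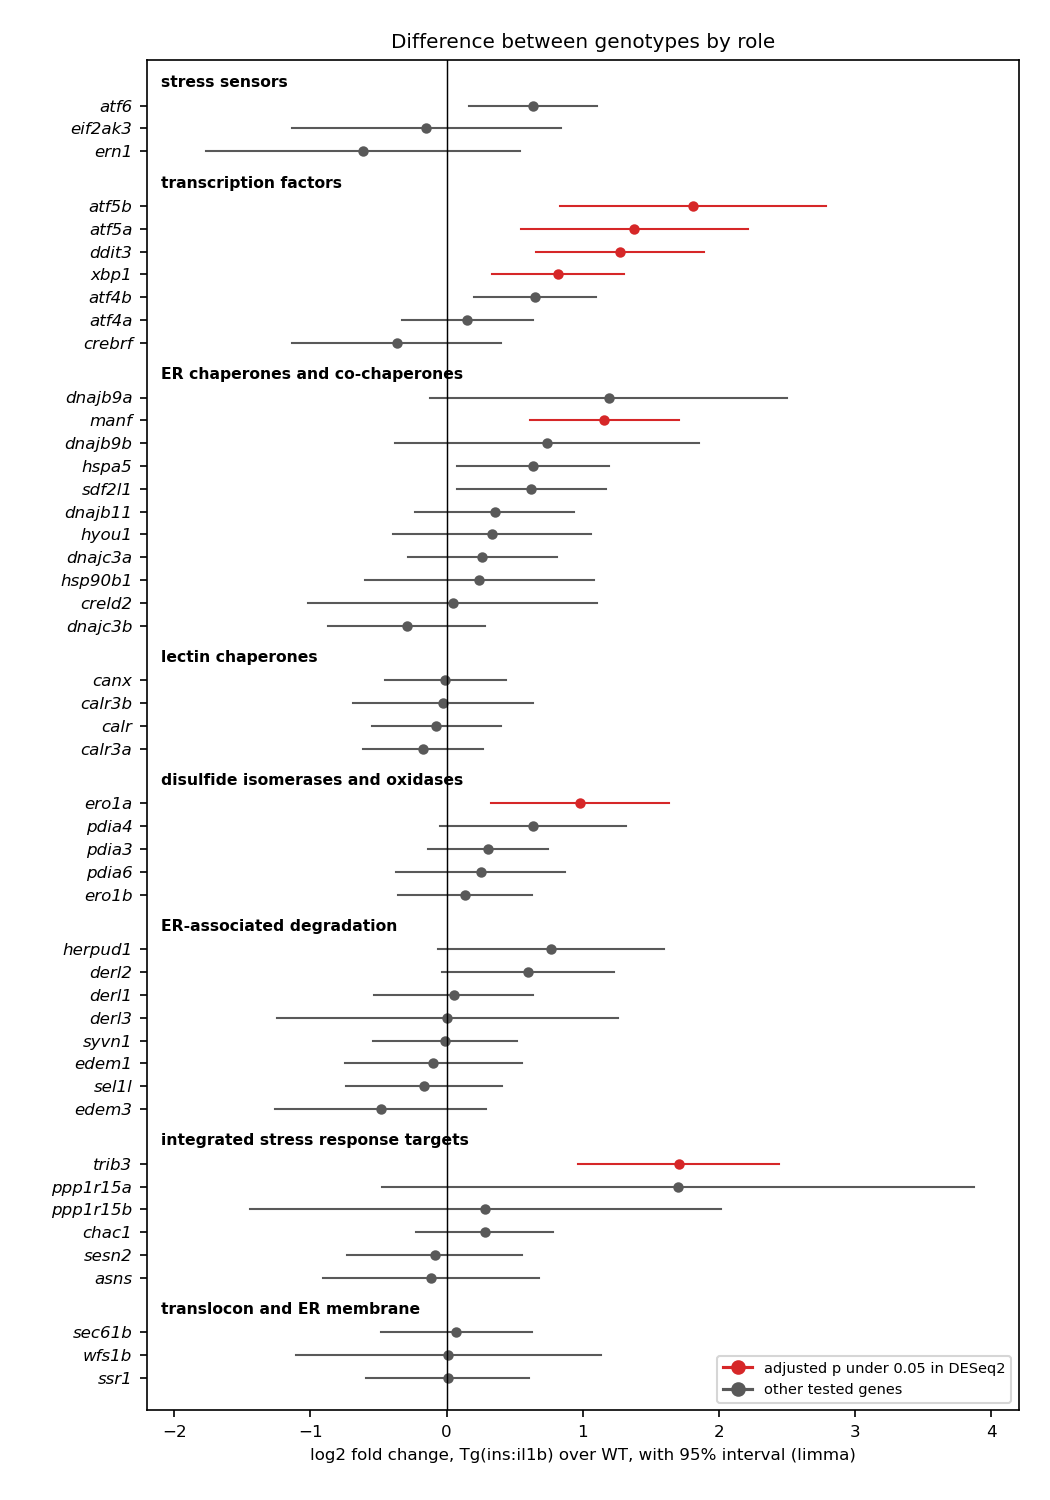
Log2 fold change of Tg(ins:il1b) over WT for the 47 tested genes with its 95% interval from limma, sorted within each role; red marks an adjusted p under 0.05 in DESeq2. The 7 red genes lie between 0.82 (xbp1) and 1.81 (atf5b) and 4 of them are transcription factors, while the lectin chaperones centre near 0.

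The 3 sensors had log2 fold changes of different sign, and the difference between them was not tested. The gene atf6, whose product is itself the membrane-bound precursor of a transcription factor, had 9764 and 10878.6 normalised counts in WT, against 17289.1 and 14836.7 in Tg(ins:il1b). Both Tg(ins:il1b) libraries were above both WT libraries, at a log2 fold change of 0.64 (standard error, SE, 0.19, adjusted p of 0.203 in limma and 0.128 in DESeq2). It overlaps rxrgb on the other strand, and the strand setting of the counting is not given in the sources used here. The gene ern1, which encodes the kinase and endonuclease Ire1, had 149.7 and 172.7 normalised counts in WT, against 71.8 and 152.8 in Tg(ins:il1b). Its groups overlapped, at -0.61 with an interval from -1.76 to 0.54. The Perk gene eif2ak3 was at -0.15 (interval from -1.13 to 0.84). Of the 3 sensors, atf6 was by far the most abundant per kb in WT, at 2363 normalised counts per kb against 31.1 for ern1 and 44.2 for eif2ak3.

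DESeq2 called 4 of the 7 transcription factors higher (57.1%, against 4.24% of all genes), and these were most of the members it called. The median log2 fold change of the factors was 0.82. The gene xbp1 on chromosome 5 (15444194 to 15448703 of GRCz10) encodes the factor that Ire1 activates by splicing. It had 7961.1 and 9103.4 normalised counts in WT, against 13702.4 and 16418.3 in Tg(ins:il1b), a ratio of means of 1.77. Every Tg(ins:il1b) library lay above every WT library, at a log2 fold change of 0.82 (SE 0.20, adjusted p of 0.13 in limma and 0.0297 in DESeq2). Spliced and unspliced xbp1 were counted together.

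The gene ddit3 on chromosome 6 (58921658 to 58924855) encodes Chop. It had 876.2 and 711 normalised counts in WT, against 1634.2 and 2235.6 in Tg(ins:il1b), means of 794 ± 117 and 1935 ± 425 (SD, n = 2). The groups did not overlap, and the lowest Tg(ins:il1b) library stood 0.90 above the highest WT library on the log2 scale. Its log2 fold change was 1.27 (SE 0.26, adjusted p of 0.0809 in limma and 0.00166 in DESeq2). Part of ddit3 overlaps fam210b on the other strand.

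Both copies of atf5, a factor translated under eIF2α phosphorylation in mammals, were higher by DESeq2. For atf5a on chromosome 5 (29814097 to 29818483) the values were 383 and 248.9 normalised counts in WT, against 991.4 and 654 in Tg(ins:il1b). For atf5b on chromosome 15 (17929973 to 17934068) they were 152.5 and 109 in WT, against 610.4 and 339.8 in Tg(ins:il1b). Neither gene overlapped between genotypes, and Tg(ins:il1b) replicate 1 was the highest library for both. The log2 fold changes were 1.38 (SE 0.34, adjusted p of 0.137 in limma and 0.0126 in DESeq2) for atf5a and 1.81 (SE 0.40, adjusted p of 0.108 in limma and 0.00181 in DESeq2) for atf5b.

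The copies of atf4, the main effector of the Perk arm in mammals, differed from each other in value, and this difference was not tested. Members outside the naming rule whose own values are given, such as ern1, atf4a, atf4b, hsp90b1, sdf2l1, herpud1, pdia4 and ppp1r15a, were chosen after their values were seen. The gene atf4b had 5562.1 and 6335.5 normalised counts in WT, against 9226.2 and 9402.8 in Tg(ins:il1b), and the groups did not overlap, at a log2 fold change of 0.65 (adjusted p of 0.179 in limma and 0.103 in DESeq2). The gene atf4a had 3764.7 and 3505.9 in WT, against 3679.8 and 4423 in Tg(ins:il1b), with overlapping groups and a log2 fold change of 0.15. The last of the 7 factors, crebrf, a regulator of the response, was lower in both Tg(ins:il1b) libraries at -0.37 (limma adjusted p = 0.691).

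**Figure D3:**
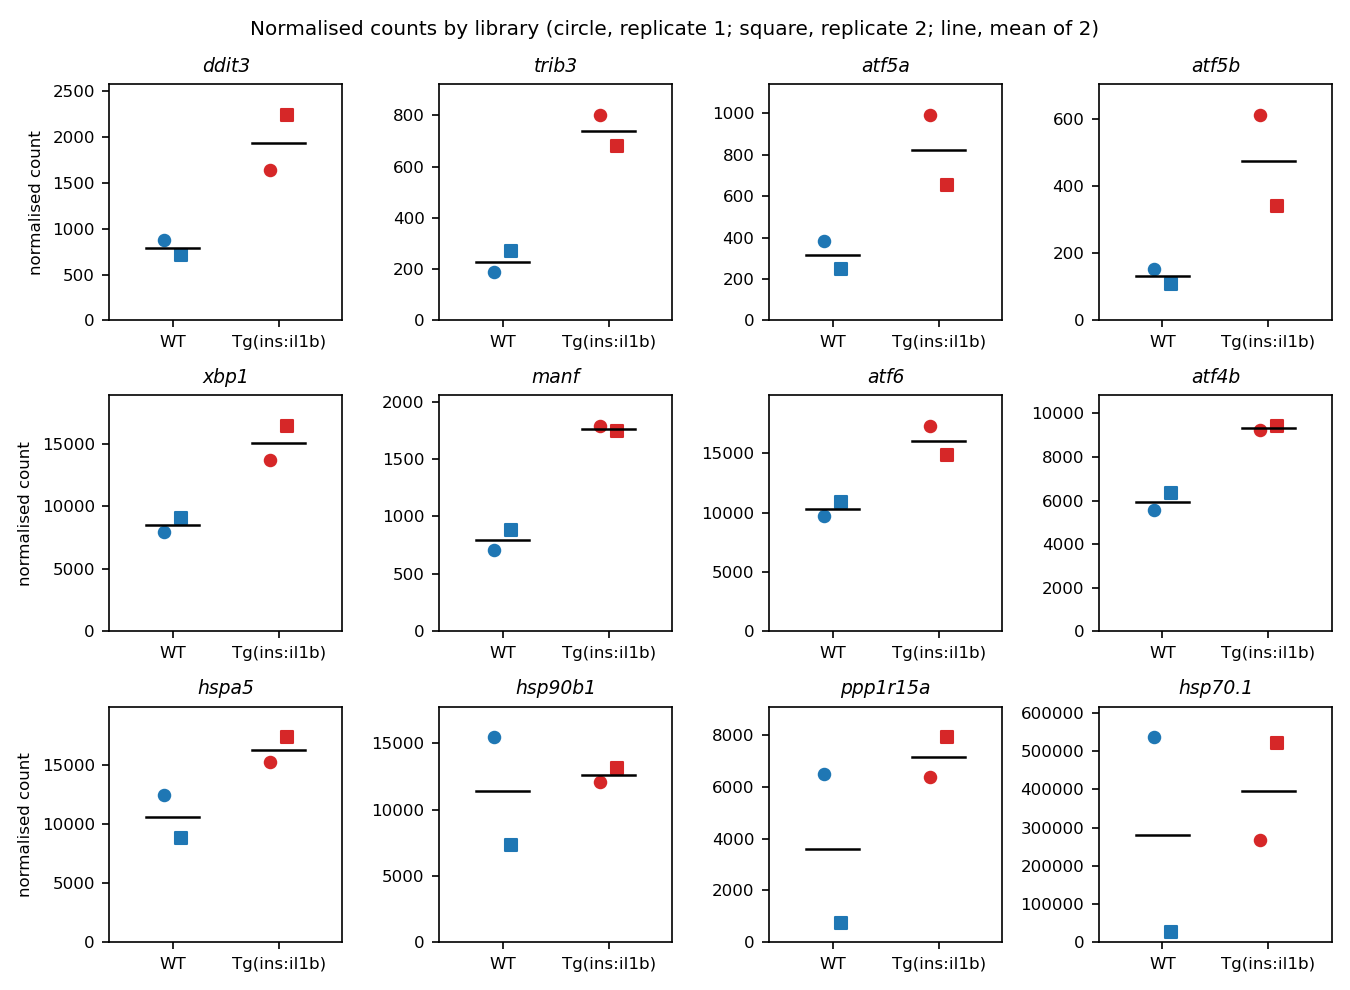
Normalised counts in each library for 11 members and for the heat-shock gene hsp70.1, with WT in blue, Tg(ins:il1b) in red, circles for replicate 1, squares for replicate 2 and a line at the mean of the 2 libraries; every vertical axis starts at 0. The genotypes are separate from ddit3 to atf4b and for hspa5, whereas for hsp90b1, ppp1r15a and hsp70.1 WT replicate 2 is the lowest of the 4 libraries and WT replicate 1 is among the Tg(ins:il1b) values or above them.

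Among the 11 ER chaperones and co-chaperones, 7 were higher in both Tg(ins:il1b) libraries (63.6%, against 22.3% of all genes), 1 was called by DESeq2 (9.09%, against 4.24%) and the median log2 fold change was 0.35. The chaperone gene hspa5 on chromosome 5 (2440676 to 2448586) encodes Bip, which binds unfolded proteins and holds the sensors inactive. It had 12452.3 and 8816.9 normalised counts in WT, against 15248.6 and 17345.8 in Tg(ins:il1b), means of 10635 ± 2571 and 16297 ± 1483 (SD, n = 2). The groups did not overlap, with the closest libraries 0.29 apart on the log2 scale. Expressed as log2 fold change, the difference was 0.63 (SE 0.23, adjusted p of 0.284 in limma and 0.265 in DESeq2), and it was 0.88 without WT replicate 1 and 0.39 without WT replicate 2.

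The gene manf on chromosome 22 (32274258 to 32280927) encodes an ER-resident factor that mammalian β-cells need for survival. It had 706.3 and 882.8 normalised counts in WT, against 1784.8 and 1745.1 in Tg(ins:il1b). These were the closest Tg(ins:il1b) replicates among the called members, at 1765 ± 28.1 (SD, n = 2) and a ratio of means of 2.22. Its log2 fold change was 1.16 (SE 0.23, adjusted p of 0.0752 in limma and 0.00192 in DESeq2). The gene sdf2l1, whose product partners the co-chaperone Dnajb11 in mammals, had 1513.6 and 2027.9 in WT, against 2785.3 and 2609.6 in Tg(ins:il1b), at 0.62 (limma adjusted p = 0.282).

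By contrast, hsp90b1, which encodes the ER Hsp90 paralogue Grp94, had 15443.7 and 7358.2 normalised counts in WT, against 12096.4 and 13128 in Tg(ins:il1b). Its groups overlapped, with WT replicate 1 the highest and WT replicate 2 the lowest library. Its log2 fold change was 0.24 with both, 0.78 without WT replicate 1 and -0.29 without WT replicate 2. Of the other members of this role, dnajb9a at 1.19, dnajb9b at 0.74, dnajb11 at 0.35 and dnajc3a at 0.26 had groups that did not overlap and adjusted p-values from 0.389 to 0.689 in limma. Both dnajb9 copies were low, with at most 95.1 normalised counts. The antisense row over dnajb9b had 32.1 and 28.9 in WT, against 60.6 and 75.9 in Tg(ins:il1b), in the same direction as dnajb9b, and reads of the pair cannot be told apart without strand. The co-chaperone gene dnajc3b was lower in both Tg(ins:il1b) libraries at -0.29 (limma adjusted p = 0.667), and it overlaps several other genes. For hyou1 at 0.33 (limma adjusted p = 0.711) and creld2 at 0.04 (limma adjusted p = 0.983) the groups overlapped.

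The lectin chaperones, which hold glycoproteins in the folding cycle, had a median log2 fold change of -0.05, and the sign of canx turned with scaling to the library total (0.15, the same as the median of all genes). For canx, the calnexin gene on chromosome 14 (16127085 to 16171210), the values were 10929.5 and 10426.1 normalised counts in WT, against 11137.3 and 10116.6 in Tg(ins:il1b). The WT libraries lay between the Tg(ins:il1b) libraries. On the log2 scale the difference was -0.01 with an interval from -0.45 to 0.43. The calreticulin genes calr, calr3a and calr3b were at -0.08, -0.17 and -0.03, and calr3a alone had both Tg(ins:il1b) libraries below both WT libraries, at 5967.9 and 6316.6 against 6705.6 and 7164.3.

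The disulfide isomerases and oxidases form and rearrange the disulfide bonds that proinsulin needs. The gene pdia3 on chromosome 25 (29900005 to 29914020) had 16847 and 16944 normalised counts in WT, against 21305.5 and 20361.5 in Tg(ins:il1b). The replicates were close and the groups did not overlap, at a log2 fold change of 0.30 (SE 0.18, limma adjusted p = 0.535). The oxidase gene ero1a on chromosome 17 (15010286 to 15021706) had 563 and 742.9 in WT, against 1480.6 and 1105 in Tg(ins:il1b). The groups did not overlap, at 0.98 (SE 0.27, adjusted p of 0.168 in limma and 0.0468 in DESeq2). Its paralogue ero1b, the β-cell-enriched form in mammals, was several times more abundant per kb, at 2190 normalised counts per kb against 314 in WT, and was at 0.14 with an interval from -0.35 to 0.63. The gene pdia4 had 2411.8 and 1449.1 in WT, against 2753 and 3073.4 in Tg(ins:il1b), at 0.64 (limma adjusted p = 0.376).

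The 8 genes of ER-associated degradation, which pull misfolded proteins out of the ER for the proteasome, had a median log2 fold change of -0.0048. DESeq2 called 0 of these 8 genes (4.24% of all genes were called higher and 2.45% lower). The channel component gene derl1 on chromosome 16 (25728413 to 25748814) was the most abundant per kb in WT, at 1088 normalised counts per kb, with 2669.9 and 2102.2 normalised counts in WT, against 2838.9 and 2124.4 in Tg(ins:il1b). Its groups overlapped, at 0.05 with an interval from -0.53 to 0.64. The gene herpud1, which encodes a membrane scaffold of the ligase complex, had 580.5 and 377.2 in WT, against 637.7 and 994.9 in Tg(ins:il1b), at 0.77 (limma adjusted p = 0.381). The groups did not overlap for herpud1 and derl2 (0.60), and the lowest value in the list was that of the mannosidase-like gene edem3 at -0.48 (interval from -1.26 to 0.29).

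The targets of the integrated stress response, the branch below eIF2α, had log2 fold changes from -0.11 to 1.70, with a median of 0.28 over 6 genes. Differences between these genes were not tested. The gene trib3 on chromosome 11 (23820673 to 23825339) encodes a pseudokinase that is a known target of Atf4 and Chop in mammals. It had 188.3 and 271.1 normalised counts in WT, against 800.4 and 680.7 in Tg(ins:il1b), means of 230 ± 58.5 and 741 ± 84.6 (SD, n = 2) and a ratio of 3.22. The lowest Tg(ins:il1b) library stood 1.32 above the highest WT library on the log2 scale, the widest such gap among the tested members. The log2 fold change was 1.70 (SE 0.30, adjusted p of 0.0574 in limma and 1.57e-04 in DESeq2). The glutathione-degrading enzyme gene chac1 on chromosome 20 (28367802 to 28370372) had 5503.3 and 4969.5 in WT, against 7165.5 and 5620.9 in Tg(ins:il1b), at 0.28 (limma adjusted p = 0.633), with the closest libraries almost level. The asparagine synthetase gene asns was at -0.11 (interval from -0.90 to 0.68) and the stress-induced gene sesn2 at -0.09 (interval from -0.73 to 0.55). For ppp1r15b the groups overlapped, at 0.29 (interval from -1.45 to 2.02).

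The value of ppp1r15a, whose product Gadd34 recruits the phosphatase of eIF2α, was set by 1 library. It had 6498.9 and 734.2 normalised counts in WT, against 6385.3 and 7901.4 in Tg(ins:il1b). WT replicate 2 was low and the other 3 libraries were alike. The log2 fold change of 1.70 (SE 0.90, limma adjusted p = 0.466) was 3.27 without WT replicate 1 and 0.13 without WT replicate 2.

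Of the 4 translocon and ER membrane members, the 3 tested had overlapping groups, and wfs1a, under the filter, had 2.8 and 1 normalised counts in WT, against 3 and 5.3 in Tg(ins:il1b). The gene sec61b on chromosome 16 (27289445 to 27297036), a subunit of the protein-conducting channel, had 5943.3 and 6523.7 normalised counts in WT, against 7767.8 and 5519.4 in Tg(ins:il1b). The WT libraries lay between the Tg(ins:il1b) libraries, at a log2 fold change of 0.07 with an interval from -0.48 to 0.62, and sec61b overlaps erp44 and alg2 on the other strand. The genes ssr1 and wfs1b were at 0.01 and 0.01.

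The summed heat-shock and dissociation genes were lowest in WT replicate 2. The 25 such genes in the table summed to 1208120 and 118568 normalised counts in WT, against 709683 and 1218698 in Tg(ins:il1b), and hsp70.1, a cytosolic heat-shock gene, had 536116 and 27685 in WT, against 267053 and 521850 in Tg(ins:il1b). WT replicate 2 was likewise the lowest library for 19 of the 47 members, 40.4% against 24.1% of all tested genes, and the part of the heat-shock genes in these values was not tested. Among the 7 members called by DESeq2 these were ddit3, atf5a and atf5b, whose log2 fold changes were 1.12, 1.07 and 1.57 without WT replicate 2. The others included hspa5, hsp90b1, ppp1r15a, pdia4, pdia6, herpud1 and chac1. In the other 4 called members (xbp1, trib3, manf and ero1a) and in atf6, atf4b and sdf2l1, WT replicate 2 was above WT replicate 1, and leaving it out gave larger log2 fold changes, from 0.71 for atf6 to 1.97 for trib3. Over the 47 members the median log2 fold change was 0.11 without WT replicate 2 and 0.33 without WT replicate 1, with 28 and 37 members above 0. The sums of the heat-shock and dissociation list overlapped between genotypes, and the part of WT replicate 2 in its fold changes was not tested. Of its 24 tested genes, 23 had a log2 fold change above 0 (49.3% of all genes), with a median of 1.45. Both Tg(ins:il1b) libraries lay above both WT libraries for only 7 of them (29.2%, against 22.3% of all genes). DESeq2 called 4 of the 24 higher (16.7%, against 4.24% of all genes) and 0 lower (2.45% of all genes). Limma called 0 of them (1.1% of all genes were called higher and 0.53% lower).

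**Figure D4:**
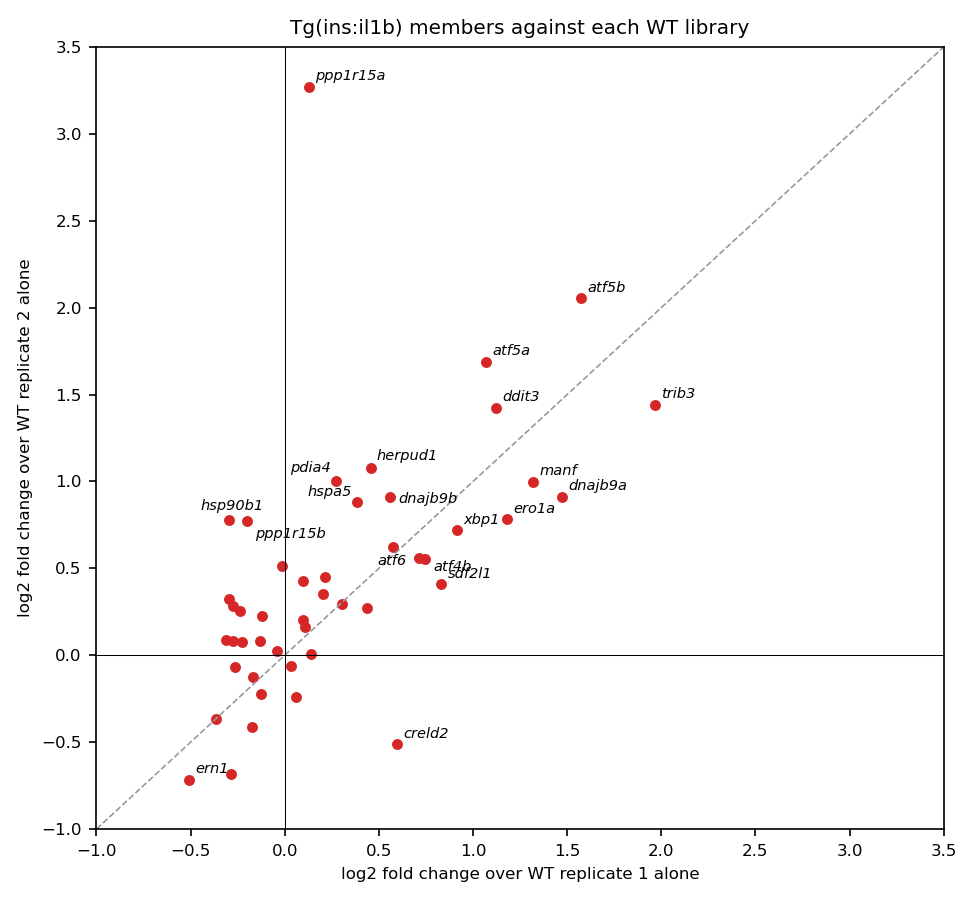
Log2 fold change of the 2 Tg(ins:il1b) libraries over WT replicate 1 alone (horizontal) and over WT replicate 2 alone (vertical) for the 47 tested genes, with the line of equality dashed. The atf5, ddit3, manf, ero1a, xbp1 and trib3 points are above 0 on both axes, while ppp1r15a lies at 0.13 and 3.27 and hsp90b1 at -0.29 and 0.78.

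The DESeq2 calls depended on single libraries. Each fit with 1 library left out has a genotype with a lone library, which is assumed to vary like the 2 libraries of the other genotype, so its p-values rest on the spread of that other genotype alone. Without WT replicate 1, DESeq2 called 4 members higher (3.3% of all genes), namely ddit3, atf5a, atf5b and ppp1r15a. Without WT replicate 2 it called only trib3 (2.95% of all genes), without Tg(ins:il1b) replicate 1 it called trib3 and ddit3 (4.06%), and without Tg(ins:il1b) replicate 2 it called trib3, atf5a and atf5b (1.91%). It called 0 members lower in each, against 1.14% of all genes without WT replicate 1, 1.04% without WT replicate 2, 2.67% without Tg(ins:il1b) replicate 1 and 2.5% without Tg(ins:il1b) replicate 2. The gene trib3 was called in 3 of these 4 fits and had an adjusted p of 0.0943 from DESeq2 in the fit without WT replicate 1. The adjusted p of ddit3 was 0.196 without WT replicate 2 and 0.12 without Tg(ins:il1b) replicate 2. The genes xbp1, manf and ero1a were called in 0 of the 4 fits, with adjusted p-values from DESeq2 of 0.0611 to 0.561, 0.0529 to 0.284 and 0.0663 to 0.653. In all 4 fits the log2 fold changes of these 7 genes stayed positive, at 0.69 or more in limma.

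Genes of the same pathways outside the 49 were described from 5 lists with 211 symbols, of which 164 were in the table and 159 were tested. Limma called 1 higher (0.629%, against 1.1% of all genes) and 1 lower (0.629%, against 0.53%), so the shares were near those of the whole table. Both were among the targets of the integrated stress response, and edgeR called as many. The gene nupr1, a small stress-induced chromatin protein gene, rose from 41.3 and 25.1 normalised counts in WT to 685.2 and 2358.4 in Tg(ins:il1b), or by 5.26 on the log2 scale (SE 0.62, limma adjusted p = 0.0209). The gene cthl, which encodes a cystathionine gamma-lyase-like enzyme, fell from 589.6 and 330.9 to 65.7 and 76.9, a log2 fold change of -2.62 (SE 0.41, limma adjusted p = 0.0421). Without any 1 library, limma called neither. The median over the 159 genes was 0.14, and DESeq2 called 9 higher (5.66%, against 4.24% of all genes) and 2 lower (1.26%, against 2.45%).

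Of the genes DESeq2 called, 5 more are targets of the integrated stress response. In that list of 40 tested genes it called 15% higher, against 4.24% of all genes, and 2.5% lower, against 2.45%. The factor gene atf3 had 355.4 and 119.6 normalised counts in WT, against 798.4 and 2737.8 in Tg(ins:il1b), at a log2 fold change of 2.84 (adjusted p of 0.136 in limma and 2.17e-04 in DESeq2). The others were cebpb (2.07), stc2a (1.88), sqstm1 (1.01) and cebpg (0.88). Inflammatory signals are also known to induce atf3 and cebpb, and their part in these values was not tested. Among amino acid genes on the same list, the transporter subunit gene slc3a2b had 25960.8 and 17077.1 in WT, against 9997.3 and 13624.9 in Tg(ins:il1b), at -0.85 (adjusted p of 0.228 in limma and 0.101 in DESeq2). These genes and those in the next sentences that limma did not call were named after their values were seen, apart from those of highest mean in each list.

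Of all genes, limma called 1.1% higher and 0.53% lower, edgeR 0.903% and 0.373%, and DESeq2 4.24% and 2.45%. In the list of other ER folding genes, 0 of 27 passed limma. DESeq2 called 7.41% of them higher, the peptidyl-prolyl isomerase genes fkbp10b (1.51, limma adjusted p = 0.0501) and fkbp11 (1.76, limma adjusted p = 0.0792). The genes of highest mean there were ppib, with 19104.6 and 16829.2 normalised counts in WT, against 29468.5 and 20892.6 in Tg(ins:il1b), and p4hb, with 12305.3 and 11388.9 against 14232.9 and 11086.9. The groups overlapped for p4hb and not for ppib, at log2 fold changes of 0.09 and 0.47. In the list of other degradation genes 0 of 21 were called by limma, edgeR or DESeq2, with the ATPase gene vcp at 0.19 and the membrane protein gene vimp at 0.05. In the list of translocon, signal peptidase and export genes, 0 of 37 passed limma. DESeq2 called 1 higher, 2.7% of the list and less than the share of all genes. It was sec61g (0.87), the gamma subunit of the channel, with 912.9 and 961.9 in WT, against 1670.6 and 1762.2 in Tg(ins:il1b). The glycosylation genes rpn2 and ddost were at 0.09 and -0.13. In the list of other regulators, 0 of 34 passed limma. DESeq2 called 1 lower, nck2a (-1.16), which is 2.94% of the list and near the share of all genes. The genes of highest mean there, nucb2b and hm13, were at -0.17 and 0.26.

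The summed macrophage and leukocyte markers ranked the 4 libraries in the same order as xbp1, and in another order than the other 6 members called by DESeq2. The sums and these members all separated the genotypes, so few orders were possible and a shared order says little. The sums were lowest in WT replicate 1 and highest in Tg(ins:il1b) replicate 2. There lcp1, the L-plastin gene, had 56.6 normalised counts against at most 3.9 in the other 3 libraries. The genes lcp1 and mpeg1.1 were a small part of the sums, so the order of the sums rests on other genes of the list. Of the 24 tested markers, limma called 0 (1.1% of all genes were called higher) and edgeR called 0 (0.903% of all). At an unadjusted p under 0.05 in limma 8 were higher, against 7.95% of all genes, and DESeq2 called 5 higher (20.8%, against 4.24%). Both Tg(ins:il1b) libraries lay above both WT libraries for 62.5% of these markers, against 22.3% of all genes, and their median log2 fold change was 1.58. Among the called members, trib3, atf5a, atf5b, manf and ero1a were higher in Tg(ins:il1b) replicate 1 than in replicate 2, and ddit3 and xbp1 were higher in replicate 2. The genes nupr1 and atf3 were also highest in Tg(ins:il1b) replicate 2. Neutrophil markers summed to 1873.5 and 1900.6 normalised counts in WT, against 1912.1 and 3140.6 in Tg(ins:il1b). Of the 7 tested, limma called 0, DESeq2 called 3 higher (42.9%, against 4.24% of all genes), and the median log2 fold change was 2.06. The part of leukocytes, neutrophils among them, in the values of the members, nupr1 and atf3 was not tested. Nor was that of the α-cell markers, which were higher in both Tg(ins:il1b) libraries.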

How the data were processed

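Sorted β-cell mRNA was sequenced from 2 WT and 2 Tg(ins:il1b) libraries. The submitters' processing notes name GSNAP and GRCz10. For the counter, its strand setting and the normalisation tool, the name was not found in the labels or methods. The authors deposited a signal per gene, normalised counts rounded to 1 decimal, with gene length and position. In every library 100% of the values were whole reads, within 0.1 of a read, once divided by the value of 1 read (0.918 and 0.965 in WT, 1.01 and 1.07 in Tg(ins:il1b)). The library factors that DESeq2 computed from these reads matched the inverse of these values to within 2.61e-06 percent, up to a common scale. DESeq2 called 1245 genes at an adjusted p under 0.05, the number that the paper reports at a false discovery rate under 0.05. The table held 0 columns of other samples.

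The main test was run with limma 3.58.1 (R 4.3.3) for the 18504 genes that reached 10 normalised counts in 2 or more libraries. Values were transformed to log2(value + 1), the variance was moderated with a trend, 2 degrees of freedom were residual, and the threshold was a Benjamini-Hochberg adjusted p of 0.05. On this scale the change of low genes is understated. edgeR 4.0.16 (quasi-likelihood) and DESeq2 1.42.0 were run on the whole reads, and DESeq2 gave an adjusted p to 18625 genes by its own filter. Alternatives were pseudocounts of 0.5 and 5, no filter, a minimum of 50, no variance trend, other scalings, the replicate number as a block and leaving out each library. The fits were also run on simulated counts with known changes, in which genotype was the only structure. Such counts hold no single deviating library, so that run cannot show how the fits treat one. Python 3.11.15, pandas 2.3.3, numpy 2.4.6 and matplotlib 3.10.9 were used for tables and figures.

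The members and lists were chosen with earlier results of these data known. Library values are given for hspa5, ddit3, each member called by any tool and the member of highest mean in each role. From the other lists, the genes named by rule are those called by limma or, where fewer than 2 were called, the 2 of highest mean. Some of these have library values and others a log2 fold change alone. Of the members, 8 overlap another gene, 6 of them on the other strand. The depth sets counting error only, and the 2 libraries per genotype limit the tests.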

Additional observations from a re-analysis of the deposited data

How the results depend on the processing

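With 2 libraries per genotype, single libraries decided many calls. Limma called 302 genes in all, 13 without the variance trend and 0 to 1 when 1 library was left out, while DESeq2 called 1245, and 1224 without Tg(ins:il1b) replicate 1, 744 without Tg(ins:il1b) replicate 2, 730 without WT replicate 1 and 658 without WT replicate 2. Of the members, 0 were called higher by limma, 7 by DESeq2, 1 to 4 by DESeq2 with 1 library left out, 1 with a minimum of 50 counts (trib3) and 2 with scaling to the library total (trib3 and manf). Limma called 316 genes in all with that minimum and 362 with that scaling, which moved the median of all genes to 0.15 and of the members to 0.41. The members' median of 0.25 was 0.11 without WT replicate 2 in limma and in DESeq2, and 0.11 to 0.33 over the libraries left out. The DESeq2 fits with a library left out were added after seeing the data.

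Of the other pathway genes, limma called 1 higher (0.629%, against 1.1% of all genes). In the alternatives that gave 2, limma called 316 to 437 genes in all, in both directions (1.52% of all genes higher with the library total). It called 2 with a minimum of 50, with no filter, with a pseudocount of 5, with the replicate block, with TMM, with the library total or with the total without ins and il1b, and 0 with no trend or with 1 library left out. DESeq2 called 9, or 3 to 5 with 1 library left out. The 1 lower call became 2 in DESeq2, 0 in DESeq2 without WT replicate 1, 0 with no trend and 0 in limma with 1 library left out. Of 304 values for 16 members under 19 alternatives, 270 kept their direction and side of the threshold, 20 passed it and 14 changed sign. The sign changed for canx (-0.077 to 0.061 in limma with 1 library left out, 0.028 and 0.066 in DESeq2 without WT replicate 1 and without Tg(ins:il1b) replicate 2, 0.0035 in edgeR, 0.15 with the library total). It changed for derl1 (-0.16 to 0.26 in limma with 1 library left out, -0.11 and -0.16 in DESeq2 without WT replicate 2 and without Tg(ins:il1b) replicate 1), hsp90b1 (-0.29 to 0.78, and -0.30 in DESeq2 without WT replicate 2) and sec61b (-0.17 to 0.32, and -0.17 in DESeq2 without Tg(ins:il1b) replicate 1). The causes were not tested. Same-numbered deviations correlated at 0.033 over the tested genes, which cannot show whether same-numbered libraries shared a batch that touched few genes. With the replicate block 0 members and 437 genes (293 higher, 144 lower) were called.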

Other observations

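The insulin mRNA was lower relative to 3 ER folding genes in Tg(ins:il1b). DESeq2 called ins itself lower (2.45% of all genes were called lower) and limma did not call it. The gene canx was at a log2 fold change of -0.01. The ratio of normalised counts of ins to hspa5 was 480 and 957 in WT, against 220 and 169 in Tg(ins:il1b). The ratio of ins to pdia3 was 355 and 498 against 158 and 144, and that of ins to canx was 547 and 810 against 302 and 290. The groups did not overlap in these 3 ratios, which share ins and were not tested, and genes of different length are compared here only between libraries.

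The ratios of paralogues and neighbours in function differed between genotypes in some pairs and overlapped in others. The ratio of atf4b to atf4a was 1.48 and 1.81 in WT, against 2.51 and 2.13 in Tg(ins:il1b), and that of ero1b to ero1a was 19.5 and 14.2 against 7.09 and 12.1. The ratio of hspa5 to calr was 1.22 and 1.07 against 1.75 and 1.99. The groups overlapped in calr to calr3a, at 1.52 and 1.15 against 1.46 and 1.38, and in dnajb9b to dnajb9a, at 2.54 and 1.32 against 1.27 and 1.37. These ratios were chosen after the values were seen and were not tested.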
